A study of Drosophila melanogaster with 30 samples.

Results

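Cytochrome P450 genes were described in adult virgin males of Drosophila melanogaster raised on rich or poor food. They were taken as the probe sets whose single gene symbol in the array's annotation is Cyp followed by digits, a lower-case letter and digits. This gave 73 probe sets for 73 genes, of 15309 probe sets in all. All 73 were found by gene identifier under the same symbol in RefSeq's gene table (assembly Release 6 plus ISO1 MT), which holds 75 protein-coding genes with such symbols. The form of the symbol leaves out 6 P450 genes with a second letter (Cyp4aa1, Cyp4ac1, Cyp4ac2, Cyp4ac3, Cyp4ad1 and Cyp4ae1) and Cyp12d1-d, whose symbol has a suffix. It also leaves out P450 genes that go by other names, among them spo, spok, dib, sad and shd of ecdysteroid synthesis.

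Cytochrome P450 enzymes are haem proteins that oxidise small hydrophobic molecules with electrons passed on by a reductase or, in mitochondria, by ferredoxin. In insects some members carry out fixed steps of physiology, such as the synthesis and inactivation of the moulting hormone or of cuticular hydrocarbons. Others, many of them in the CYP3 and CYP4 clans and expressed in the midgut, Malpighian tubules and fat body, oxidise plant toxins, drugs and insecticides, and the transcripts of many of these change with what the insect eats.

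The stock was founded by flies collected in the field, and the flies were frozen directly. The 30 arrays fell into 10 groups of 3, and the name of a group lists the food (R rich, P poor) of each generation in turn, ending with the flies measured. Groups R and P are F0 flies. In F1, rich-raised parents gave R-R and R-P, and poor-raised parents gave P-R and P-P. In F2, where the parents were always raised on rich food, rich-raised grandparents gave R-R-R and R-R-P, and poor-raised grandparents gave P-R-R and P-R-P. All 10 groups are labelled as males of the same stock. What the foods contained, which tissue was taken and how many flies went into a sample is not stated in the sources used here. Whether replicates are separate cultures is likewise unstated, and p-values cover only the spread of these samples, which may be technical.

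Levels are the deposited GCRMA values, taken as log2, and every difference is that of poor less rich in log2 units, with its standard error from limma's model of the 10 group means. A gene was called where its adjusted p was under 0.05 over all 15309 probe sets. Lack of overlap between the arrays of a single comparison only describes them. Its share over all probe sets was not counted, and it is no further test. Of the 73 genes, 40 had a mean of at least 1 over the 30 arrays and 33 a mean under 1, where little signal was measured. In RNA of many cells, fewer cells that express a gene and less of its RNA per cell cannot be told apart. Close paralogs may share probe signal, so the values of members of 1 subfamily are uncertain to that extent.

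Some arrays stood apart from the others of their group. The mean of 9 ovary and yolk genes was 4.31 on replicate 2 of R-P and 4.98 on replicate 2 of P-R-R, against 0.24 to 0.56 on the other 28 arrays. Such transcripts conflict with the male label of both arrays, and their source was not tested. The mean of 5 cuticle genes was 2.43 to 2.54 on replicates 1 and 3 of R-R, against 3.80 to 5.77 on the other 28. Replicates 1 and 3 of R-R were also low, with slight overlap, for 3 muscle genes (5.11 to 5.83, against 5.81 to 6.92). The same held for 5 fat body genes (3.37 to 3.70, against 3.67 to 4.42). Calls of members for own diet were also made without these arrays. Differences of single genes with parental or grandparental diet, and those of Cyp4ac1, are given with these arrays only.

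The first question was which P450 genes differed with the food of the flies themselves, on average over the 5 pairs of groups that share an ancestry and differ in their own food. Lower levels in poor-raised males were called for 7 of the 73 genes (9.59%) and higher levels for 0, with limma and Benjamini-Hochberg adjustment. Over all probe sets 1.84% were called, 0.98% lower and 0.856% higher. At an unadjusted p under 0.05 there were 17 genes, 11 lower and 6 higher, 23.3% of the members against 10.2% of all probe sets (5.1% lower and 5.11% higher). The median difference of the 73 genes was -0.02, against -0.01 over all probe sets, and 39 of the 73 lay below 0 (53.4%, against 52.7% of all). A few genes moved far, and the typical member lay close to 0.

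**Figure D1:**
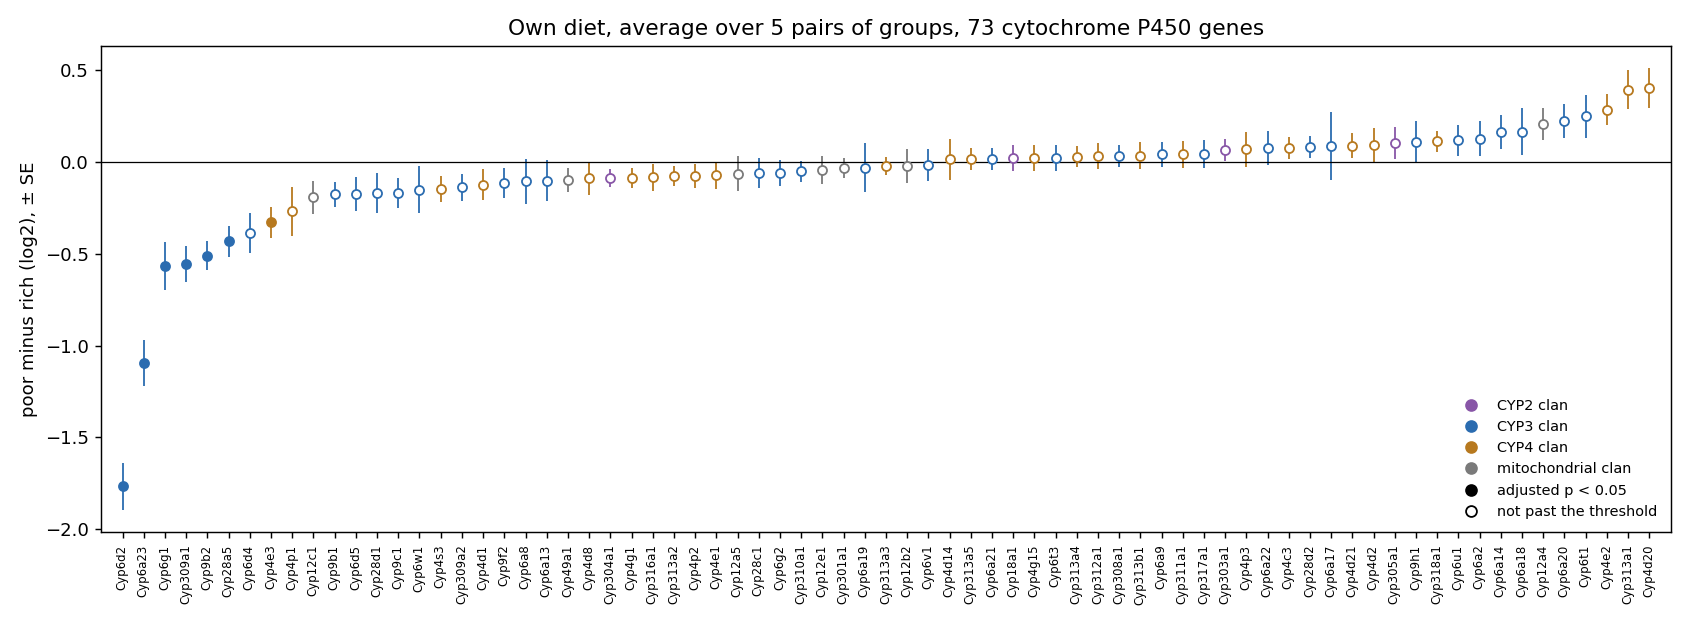
Average difference between poor-raised and rich-raised males (vertical axis, log2, with standard error) for each of the 73 genes, ordered by size and coloured by clan. The filled points are the 7 genes past the threshold, all below 0, from Cyp4e3 at -0.33 to Cyp6d2 at -1.77, and Cyp4d20 stands highest at 0.40.

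By clan, the calls lay mostly among the CYP3 genes, the clan of many enzymes that act on toxins. Of its 36 members, 22 with a mean of at least 1, 6 fell and 0 rose, with a median of -0.05. Of 26 CYP4 genes 1 fell and 0 rose, with a median of 0.02. The 4 CYP2 members (median 0.04) and the 7 members in the mitochondrial clan (median -0.04) held 0 calls. In the mitochondrial clan the differences ran from -0.19 for Cyp12c1 to 0.21 for Cyp12a4, known for resistance to lufenuron. Whether the clans differed was not tested.

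Cyp6d2, known for resistance to the plant alkaloid camptothecin, changed most among the members. Its level ran from 2.37 to 4.12 with a median of 2.88 on the 15 rich-raised arrays, and from 0.93 to 1.59 with a median of 1.31 on the 15 poor-raised arrays. Every poor-raised array lay below every rich-raised array, which held for 1 of the 73 genes and for 0.0392% of all probe sets. The average difference was -1.77 ± 0.13, a 3.40-fold lower level (adjusted p = 8.28e-10). Both other members of its subfamily also had averages below 0, Cyp6d4 at -0.39 ± 0.11 (adjusted p = 0.0758) and Cyp6d5 at -0.17 ± 0.09 (adjusted p = 0.548). Cyp6d4 was lower in 5 of 5 pairs, with arrays that did not overlap in 2 of them.

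Cyp6a23, a gene of the CYP6A subfamily, which holds several insecticide-metabolising enzymes, ran from 2.76 to 4.87 with a median of 4.13 on rich-raised arrays and from 2.55 to 3.77 with a median of 2.99 on poor-raised arrays. The ranges overlapped because of replicate 3 of P-R-R, which read 2.76, and replicate 3 of R-R-P, which read 3.77. It was lower in 5 of 5 pairs and fell by 1.09 ± 0.12 on average, 2.14-fold (adjusted p = 3.12e-06). These were the 2 members that differed at least 2-fold on average, where 0.0914% of all probe sets did.

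Cyp9b2 ran from 5.53 to 6.70 with a median of 6.06 on rich-raised arrays, and from 5.17 to 6.17 with a median of 5.64 on poor-raised arrays. It fell by 0.51 ± 0.08 (adjusted p = 2.43e-04), with no overlap of arrays in 4 of 5 pairs. Cyp309a1 ran from 1.03 to 2.04 with a median of 1.35 against 0.39 to 1.93 with a median of 0.83. The poor-raised arrays within the rich-raised range were those of R-R-P, at 1.14, 1.20 and 1.93, and in 4 of 5 pairs the arrays did not overlap. Its average difference was -0.56 ± 0.10 (adjusted p = 0.00118). Arrays lower without overlap in at least 4 pairs were found for Cyp6d2, Cyp6a23, Cyp9b2 and Cyp309a1 among the members (5.48%), and for 0.353% of all probe sets.

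The other lower CYP3 genes moved less in relation to the spread of their arrays. Cyp28a5 belongs to a family whose members in desert Drosophila species respond to alkaloids of host cacti. Its level ran from 3.17 to 4.04 with a median of 3.67 on rich-raised arrays and from 2.56 to 3.52 with a median of 3.26 on poor-raised arrays. It fell by 0.43 ± 0.08 (adjusted p = 0.00296), was lower in 5 of 5 pairs and did not overlap in 2. Cyp6g1, whose overexpression gives resistance to DDT and neonicotinoids, ran from 5.76 to 7.39 with a median of 6.73 against 5.14 to 7.08 with a median of 6.18. Its arrays overlapped in every pair, yet the mean was lower in 5 of 5 pairs and the average difference was -0.57 ± 0.13 (adjusted p = 0.0169).

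Cyp4e3, a CYP4 gene known for permethrin tolerance through its activity in the Malpighian tubules, ran from 0.47 to 1.89 with a median of 0.90 on rich-raised arrays and from 0.23 to 1.01 with a median of 0.62 on poor-raised arrays. The ranges overlapped between 0.47 and 1.01, and the mean was lower in 3 pairs and higher in 2. The average difference of -0.33 ± 0.08 passed the threshold narrowly (adjusted p = 0.0384). Leaving out 1 array ended this call in 17 of 30 cases, with an adjusted p of up to 0.0795 in them: replicates 1 and 3 of R, replicate 2 of P, replicates 1 and 3 of R-R, replicate 2 of R-P, replicate 2 of P-R, replicates 1 and 2 of P-P, replicates 2 and 3 of R-R-R, replicates 1 and 2 of R-R-P, replicates 1 and 2 of P-R-R, and replicates 1 and 3 of P-R-P. The gene's mean of 0.82 over the 30 arrays is low.

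The highest averages among the members belonged to CYP4 genes that did not pass the threshold. Cyp313a1 ran from 3.02 to 4.20 with a median of 3.81 on rich-raised arrays and from 3.60 to 4.45 with a median of 4.19 on poor-raised arrays, with a difference of 0.39 ± 0.11 (adjusted p = 0.0509). Cyp4d20 ran from 0.77 to 1.67 with a median of 1.24 against 0.90 to 2.17 with a median of 1.79, with a difference of 0.40 ± 0.11 (adjusted p = 0.0533). The ranges over all arrays overlapped for both genes, while within pairs the poor-raised arrays lay above the rich-raised ones without overlap in 2 of 5 pairs for Cyp313a1 and in 1 of 5 for Cyp4d20. Their means were higher in 5 of 5 pairs, which held for 2.74% of the members and 4.39% of all probe sets. Means lower in 5 of 5 pairs were found for 10 members (13.7%, against 4.47% of all): the called Cyp6d2, Cyp6a23, Cyp309a1, Cyp28a5 and Cyp6g1, and Cyp6d4, Cyp309a2, Cyp9b1, Cyp6a13 and Cyp4s3. Cyp4e2 had a difference of 0.29 ± 0.08 (adjusted p = 0.0837). With the arrays scaled anew the split of 7 lower and 0 higher calls shifted, to 6 lower and 3 higher after quantile normalization, where Cyp313a1, Cyp4d20 and Cyp4e2 were called and Cyp4e3 was not. Centring on array medians gave 6 lower and 2 higher, with Cyp313a1 and Cyp4d20. Under each of these scalings 2.08% of all probe sets were called, against 1.84% with the deposited values. With deposited values and only probe sets of a mean of at least 1, 9 members were called (4.4% of the 6834 kept). Cyp313a1 and Cyp4d20 were among them, both higher, and so was Cyp6d4, lower. Cyp4e3 was removed by this filter before testing.

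A further 3 members with a known link to drugs or insecticides were named whatever their values, and their differences did not pass the threshold. Cyp6a2, an enzyme that metabolises several insecticides, differed by 0.13 ± 0.09 (adjusted p = 0.749). Cyp6a8, which is induced by caffeine, differed by -0.11 ± 0.12 (adjusted p = 0.872). Cyp6g2, a neighbour and paralog of Cyp6g1, differed by -0.06 ± 0.07 (adjusted p = 0.881). Outside the symbol rule, Cyp12d1-d, induced by caffeine and phenobarbital, differed by -0.09 ± 0.13 (adjusted p = 0.911).

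Members with known roles in the physiology and behaviour of the fly did not pass the threshold either. Cyp4g1, the oenocyte enzyme that makes cuticular hydrocarbons, held group means between 9.37 and 9.65 and differed by -0.09 ± 0.06 (adjusted p = 0.684). Cyp18a1, which inactivates ecdysteroids, differed by 0.02 ± 0.07 (adjusted p = 0.971), at a low mean of 0.62. Cyp4g15, expressed in the nervous system, also had a difference of 0.02. Cyp301a1, needed for the adult cuticle, and Cyp303a1, needed for sensory bristles, had differences of -0.03 and 0.07 at means under 1. For the genes tied to male behaviour, Cyp6a20, known from aggression, had a difference of 0.23 ± 0.09 (adjusted p = 0.349), and Cyp4d21, known from courtship, 0.09 ± 0.07 (adjusted p = 0.770). Cyp6a17, known from temperature preference, had 0.09 ± 0.19 (adjusted p = 0.947). Cyp304a1 and Cyp311a1 had -0.09 and 0.04, at means under 1.

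**Figure D2:**
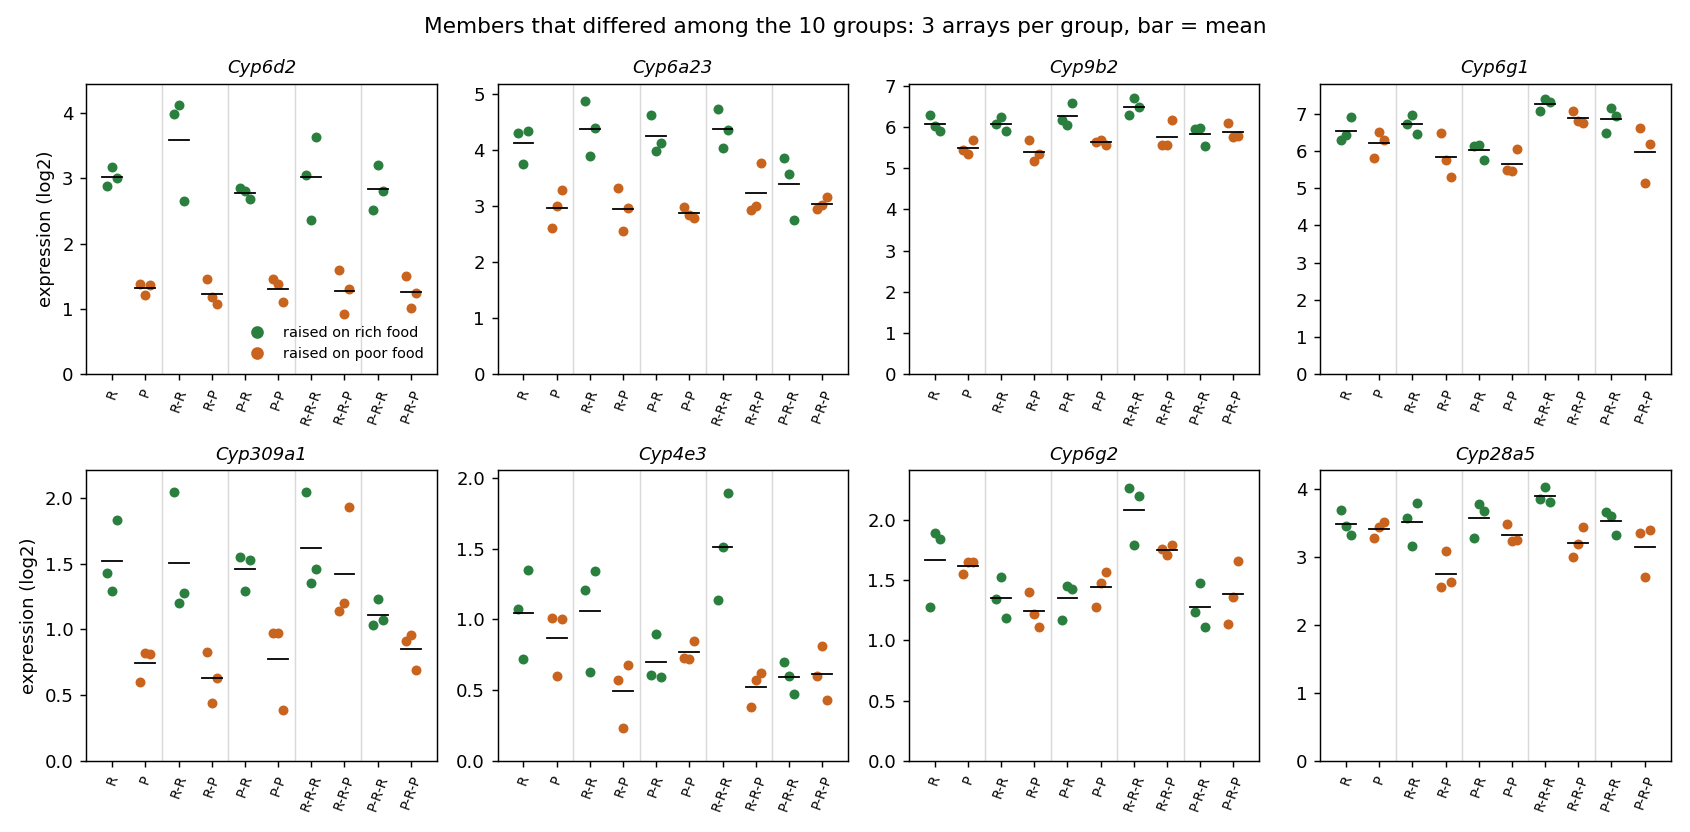
Levels (log2) of the 8 members that differed among the 10 groups, with a point per array and a bar at the mean of each group of 3; green is rich-raised and orange poor-raised, and grey lines part the 5 pairs. Cyp6d2 lies at or below 1.59 on each poor-raised array, and Cyp6g2 is highest in R-R-R with a mean of 2.08.

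Of the 73 genes, 39 lie in 14 clusters of neighbouring members, with at most 2 other protein-coding genes between them in RefSeq's order. The largest holds 9 genes in a row, Cyp6a22, Cyp6a17, Cyp6a23, Cyp6a19, Cyp6a9, Cyp6a20, Cyp6a21, Cyp6a8 and Cyp317a1. Cyp6a23 was called there, and the other 8 had averages between -0.11 for Cyp6a8 and 0.23 for Cyp6a20 that did not pass. Other called genes also had neighbours that were not called: Cyp9b2 beside Cyp9b1 (-0.18 ± 0.07, adjusted p = 0.289), Cyp309a1 beside Cyp309a2 (-0.14 ± 0.07, adjusted p = 0.544), and Cyp6g1 beside Cyp6g2 and Cyp6t3 (0.02). The differences between neighbours were not tested.

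**Figure D3:**
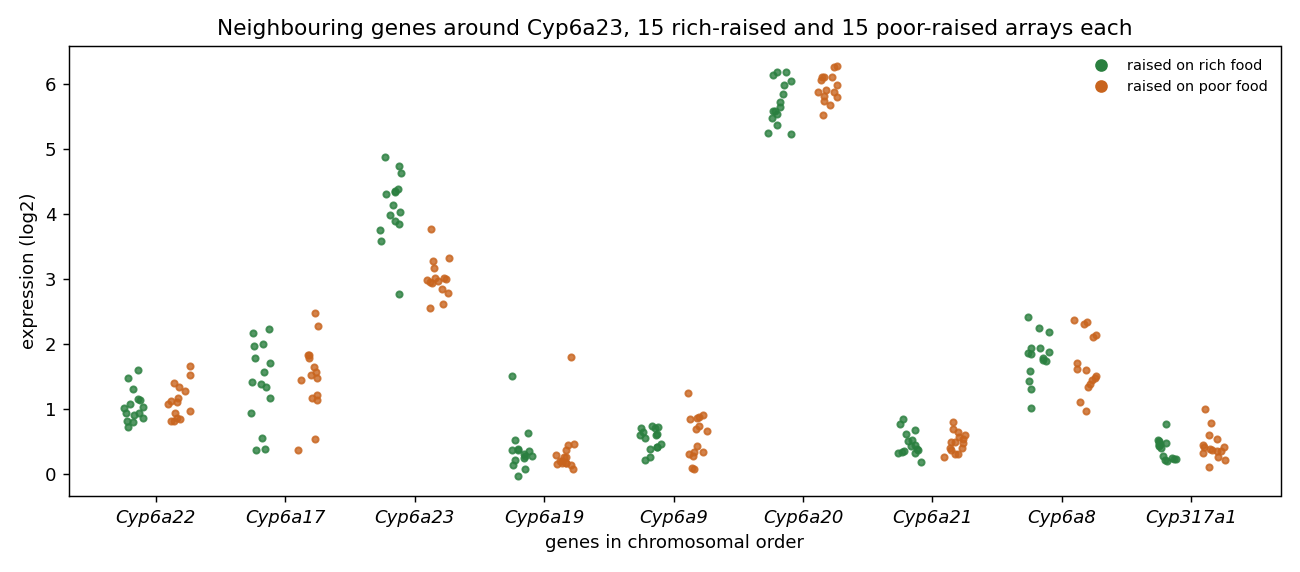
Levels (log2) of the 9 neighbouring genes around Cyp6a23 in chromosomal order, with 15 rich-raised arrays in green and 15 poor-raised arrays in orange for each gene. For Cyp6a23 the medians are 4.13 and 2.99, while the colours of the other 8 genes overlap widely.

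The own-diet difference was then asked within each generation and ancestry. In F0, where no treatment of ancestors is named, 1 of 73 members was called (1.37%, against 0.183% of all probe sets, 0.098% lower). Cyp6d2 read 2.88, 3.17 and 3.01 on the R arrays and 1.39, 1.22 and 1.36 on the P arrays. The groups stood well apart, by -1.70 ± 0.28 (adjusted p = 0.00525). Cyp6a23 read 4.30, 3.75 and 4.34 against 2.61, 3.0 and 3.28, without overlap, and the difference of -1.17 ± 0.28 did not pass (adjusted p = 0.102). Cyp12a4 had the highest difference of the members, 0.83 ± 0.19 (adjusted p = 0.0892). The median of the 73 genes was 0.02, against -0.01 over all.

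Among F1 flies of rich-raised parents 2 members were called, both lower (2.74%, against 0.601% of all, 0.47% lower). Cyp6d2 read 3.98, 4.12 and 2.65 in R-R and 1.46, 1.18 and 1.07 in R-P, a difference of -2.35 ± 0.28 (adjusted p = 3.12e-05). This was its widest gap of the 5 pairs, and replicate 3 of R-R lay well below the other two rich-raised arrays. Cyp6a23 read 4.87, 3.89 and 4.39 against 3.32, 2.55 and 2.96, a difference of -1.44 ± 0.28 (adjusted p = 0.00893). The call of Cyp6a23 ended without replicate 1 of R-R (adjusted p = 0.106) or replicate 2 of R-P (0.0942), and without both R-R arrays with low cuticle genes it stood at -0.95 (0.894). That of Cyp6d2 held without them, at -2.88, and without the arrays with ovary transcripts, at -2.32. The count of calls went to 1 without replicate 1 of R-R and to 4 without replicate 2 of R-R, which added Cyp28a5 and Cyp309a1. Outside the symbol rule, Cyp4ac1 fell here by 1.03 ± 0.24 (adjusted p = 0.0365).

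Among F1 flies of poor-raised parents, Cyp6d2 was the single member called (1.37%, against 0.0523% of all, each of them lower). It read 2.86, 2.80 and 2.68 in P-R and 1.46, 1.38 and 1.10 in P-P. Within each group the arrays lay close together, and the difference was -1.47 ± 0.28 (adjusted p = 0.0432). Leaving out any of the 6 arrays of this pair ended the call, with adjusted p from 0.111 to 0.263 and differences from -1.54 to -1.36. Cyp6a23 read 4.63, 3.99 and 4.13 against 2.99, 2.84 and 2.78, a difference of -1.38 ± 0.28 just outside the threshold (adjusted p = 0.0600).

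In F2 flies of rich-raised grandparents 2 members were called, both lower (2.74%, against 0.0588% of all, 0.0457% lower). Cyp6d2 read 3.05, 2.37 and 3.64 in R-R-R and 1.59, 0.93 and 1.31 in R-R-P, a difference of -1.74 ± 0.28 (adjusted p = 0.00689). Cyp4e3 read 1.14, 1.51 and 1.89 against 0.38, 0.57 and 0.62, a difference of -0.99 ± 0.19 (adjusted p = 0.0369). For both genes every R-R-R array lay above every R-R-P array. The call of Cyp6d2 ended without replicate 3 of R-R-R (adjusted p = 0.0606) or replicate 2 of R-R-P (0.128). The call of Cyp4e3 ended without each of 5 of the 6 arrays, all but replicate 1 of R-R-R, with adjusted p up to 0.228.

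In F2 flies of poor-raised grandparents, Cyp6d2 was again the single member called (1.37%, against 0.0719% of all, 0.0523% lower). It read 2.51, 3.20 and 2.80 in P-R-R and 1.51, 1.01 and 1.25 in P-R-P, a difference of -1.58 ± 0.28 (adjusted p = 0.0203). Leaving out replicate 2 or 3 of P-R-R or any array of P-R-P ended the call, with adjusted p from 0.0521 to 0.153; without the arrays with ovary transcripts, one of which is replicate 2 of P-R-R, it was -1.40 (adjusted p = 0.164). Cyp6a23 read 3.85, 3.58 and 2.76 against 2.95, 3.02 and 3.16, so that the arrays overlapped, and the difference was -0.35.

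**Figure D4:**
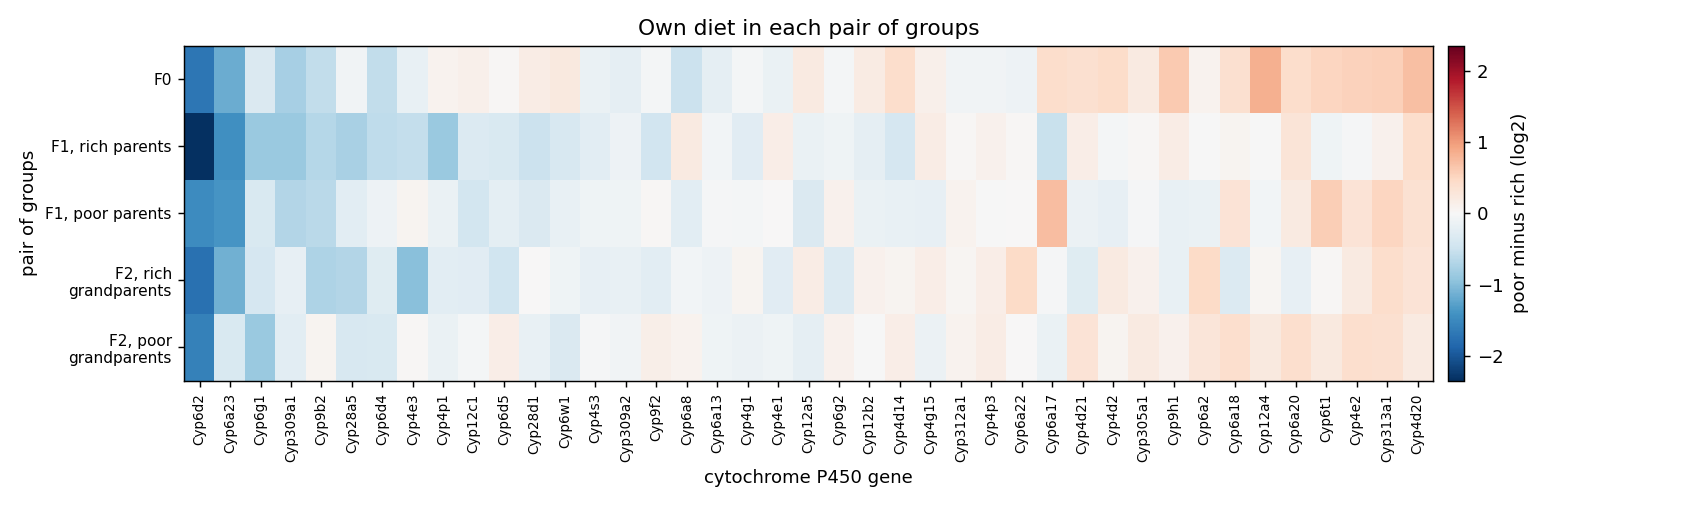
Difference between poor-raised and rich-raised males (colour, log2, blue lower and red higher) in each of the 5 pairs of groups (rows) for the 41 members with a mean of at least 1 or called on average (columns, ordered by the average). Cyp6d2 is the one column that is dark in every row, from -1.47 to -2.35, and Cyp6a23 pales in the bottom row at -0.35.

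Cyp9b2 differed by -0.59 in F0, -0.67 and -0.63 in F1 of rich-raised and poor-raised parents, and -0.72 and 0.06 in F2 of rich-raised and poor-raised grandparents. In the same order Cyp309a1 differed by -0.77, -0.87, -0.68, -0.19 and -0.26, and Cyp28a5 by -0.08, -0.76, -0.25, -0.69 and -0.38. None of these passed the threshold in a single pair with all arrays. Without the arrays with ovary transcripts, Cyp28a5 was called in F1 of rich-raised parents (-0.92, adjusted p = 0.0418) and Cyp6a23 was not (-1.24, adjusted p = 0.0817), so that the count there was still 2. An F test of whether the own-diet difference varied among the 5 pairs called 0 of the 73 genes (0.0392% of all probe sets), and 5 had an unadjusted p under 0.05 (6% of all). The smallest adjusted p was that of Cyp4e3 (F = 5.53, adjusted p = 0.623). The change of the own-diet difference with parental diet in F1 was called for 0 members (0.00653% of all) and with grandparental diet in F2 for 0 (0% of all). At an unadjusted p under 0.05 there were 4 members in each, where 4.87% and 7.64% of all probe sets were. Cyp6d2 changed by 0.88 ± 0.40 with parental diet (adjusted p = 0.984), and Cyp4e3 by 1.01 ± 0.27 with grandparental diet (adjusted p = 0.308).

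The next question was whether P450 levels differed with the food of the parents when the flies' own food was the same. These comparisons share arrays with the own-diet ones. In rich-raised F1 0 members were called (0.0523% of all probe sets) and 4 had an unadjusted p under 0.05 (5.49% of all), with the smallest p for Cyp6d2, -0.80 ± 0.28 (adjusted p = 0.699). In poor-raised F1 0 were called (0.0131% of all) and 6 passed unadjusted (6.58% of all), among them Cyp28a5 at 0.57 ± 0.19 and Cyp6t1 at 0.78 ± 0.26 (both adjusted p = 0.556). On average over both, 0 were called (0.0196% of all), 8 passed unadjusted (6.77% of all), and the median of the 73 genes was 0.06 against 0.00 over all. Cyp28d1, known from nicotine resistance, had 0.54 ± 0.18 (adjusted p = 0.470), and Cyp4d20 had 0.47 ± 0.17 (adjusted p = 0.590).

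The same was asked of the grandparents' food in F2 flies, whose parents were all raised rich. In rich-raised F2, P-R-R against R-R-R, 0 members were called, as was 0% of all probe sets, and 6 had an unadjusted p under 0.05, all lower (8.57% of all, 3.64% lower). Cyp6g2 read 2.26, 1.79 and 2.20 in R-R-R and 1.24, 1.48 and 1.11 in P-R-R, a difference of -0.81 ± 0.16 without overlap (adjusted p = 0.0988). Cyp4e3 read 1.14, 1.51 and 1.89 against 0.70, 0.60 and 0.47, also without overlap, with a difference of -0.92 ± 0.19 (adjusted p = 0.0990). Cyp6a23 had -0.98 ± 0.28 (0.280) and Cyp9b2 -0.67 ± 0.18 (0.243). Without replicate 2 of R-R-R, Cyp6g2 was called (adjusted p = 0.0290).

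In poor-raised F2, P-R-P against R-R-P, 0 members were called (0% of all) and 7 had an unadjusted p under 0.05 (5.13% of all). Cyp4d21, the courtship gene, had 0.77 ± 0.15 (adjusted p = 0.371) and Cyp6g1 -0.89 ± 0.29 (adjusted p = 0.828). On average over both F2 comparisons 0 were called (0% of all), while 12 passed unadjusted, 10 lower and 2 higher (16.4%, against 5.51% of all, 3.29% lower and 2.22% higher). Cyp6g2 had the smallest p, with -0.59 ± 0.11 (adjusted p = 0.161), and Cyp6g1 had -0.65 ± 0.21 (adjusted p = 0.571). Of the 73 genes 48 lay below 0 (65.8%, against 52.8% of all), with a median of -0.08 against -0.01.

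**Figure D5:**
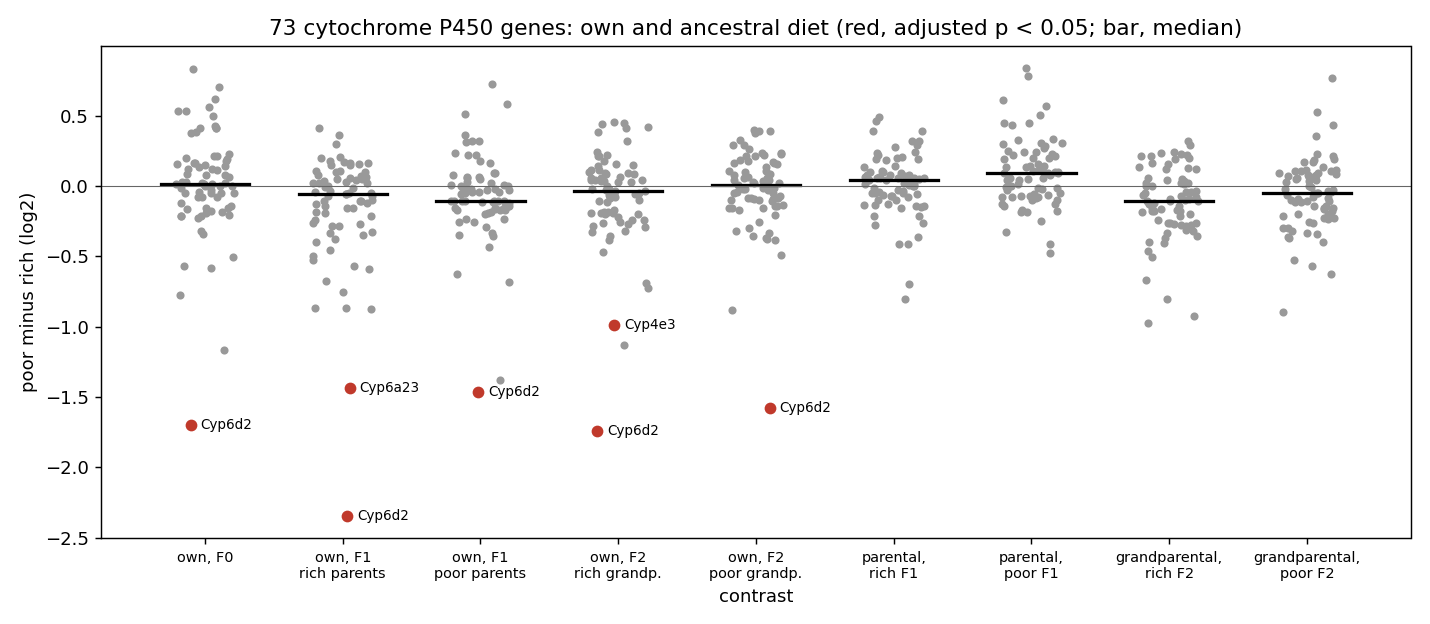
Difference between poor and rich (vertical axis, log2) for the 73 genes in the 5 own-diet pairs and in the 4 comparisons of parental or grandparental diet, with a point per gene and a bar at the median. Red points with names are the calls, which lie in the own-diet pairs only, and 0 of 73 were called in each ancestral comparison.

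Across all 10 groups, an F test called 8 members (11%, against 0.882% of all): the 7 genes called for own diet and Cyp6g2 (limma F test, adjusted p = 0.0412). For Cyp6g2 the F2 group R-R-R was highest, with a mean of 2.08 ± 0.26 (SD, n = 3). Group means elsewhere ran from 1.24 in R-P to 1.75 in R-R-P. Whether R-R-R differed from all the other groups was not tested. Its rich-raised arrays ran from 1.11 to 2.26 and its poor-raised arrays from 1.11 to 1.79, and 4 of the 15 rich-raised arrays, from R and R-R-R, lay above every poor-raised array. This call ended in 21 of the 30 cases of leaving out 1 array, with adjusted p up to 0.168, and was kept only without replicate 1 or 2 of R, 2 of R-R, 1 of R-P, 2 of R-R-R, 3 of P-P, 2 of P-R-R, or 1 or 3 of P-R-P. It also ended when the arrays with ovary transcripts were left out (adjusted p = 0.0526), or the R-R arrays with low cuticle genes (0.0831). The 3 groups with only rich food in their history, R, R-R and R-R-R, gave 0 members called by generation (0.00653% of all) and 8 unadjusted (7.48% of all), with Cyp6g2 first (F = 10.6, adjusted p = 0.319). Without replicate 1 of P the F test over the 10 groups called 4 members, and without any of replicates 1 and 3 of R-R, 2 of R-P, 3 of R-R-R, 1 and 2 of R-R-P, 3 of P-R, and 1 and 2 of P-P it called 5. Cyp6d2, Cyp6a23, Cyp9b2 and Cyp6g1 kept this call without each of the 30 arrays. That of Cyp309a1 ended in 3 cases (replicate 1 of P, 2 or 3 of R-P), that of Cyp4e3 in 17, all but replicates 2 and 3 of R, 2 and 3 of P, 2 of R-R, 3 of R-P, 2 of P-R, 1 of R-R-R, 3 of R-R-P, each of P-R-R and 2 of P-R-P, and that of Cyp28a5 in 22, all but replicates 2 of R-R, 2 of R-P, 1 of P-R, 3 of R-R-P, 3 of P-R-R and each of P-R-P.

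Leaving out the 2 arrays with ovary transcripts gave 8 calls for own diet on average, where 1.66% of all probe sets were called. Cyp6d2 stood at -1.72 and Cyp6a23 at -1.04. Cyp4d20 and Cyp4e2 were gained, both higher in poor-raised males, and Cyp4e3 was lost (-0.30, adjusted p = 0.0866). Leaving out replicates 1 and 3 of R-R gave 6 calls (1.25% of all), with Cyp6d2 at -1.87 and Cyp4e3 lost (-0.24, adjusted p = 0.294).

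Other genes of the same pathways were counted from lists, against 0.98% of all probe sets lower and 0.856% higher and a median of -0.01 over all. For own diet on average, 6 of 35 glutathione S-transferases, which conjugate oxidised compounds, fell and 0 rose, with a median of -0.03, among them GstD2 at -1.93 ± 0.21 and GstD5 at -1.13 ± 0.18, while 5 of the 35 fell once replicates 1 and 3 of R-R were left out. Of 35 UDP-glycosyltransferases, which attach sugars to such compounds, 3 fell and 0 rose with a median of -0.02, and Ugt37A3 had the largest difference of those that passed, -2.66 ± 0.35. Of 3 measured electron donors of P450 enzymes 1 fell, the ferredoxin gene Fdx2 at -0.34 ± 0.08 (adjusted p = 0.0217). The 7 measured genes of ecdysteroid synthesis gave 0 calls, with a median of 0.02. The 8 genes taken as regulators of the response to foreign compounds also gave 0, with a median of -0.02. They were Hr96, cnc, Keap1, maf-S, ss, tgo, Met and gce, and not all are known mainly for that response. The ecdysteroid genes, of which spo, spok, dib, sad and shd are themselves P450 genes, had means of only 0.12 (nvd) to 0.56 (sro). Of the regulators, only maf-S (3.60) and cnc (1.74) had a mean of at least 1. Little signal was thus measured for most genes of these 2 lists. For parental and grandparental diet on average all 5 lists gave 0 calls.

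Markers of several tissues were read on the same arrays, against the same shares of all probe sets. Of 6 Malpighian tubule genes 3 fell with poor food (salt, Irk3 and Dh31-R) and 0 rose, and their mean level ran from 2.22 to 2.72 on rich-raised and from 2.13 to 2.50 on poor-raised arrays. The other 3 were Oatp58Db at 0.35 ± 0.10 (adjusted p = 0.0822), Prip at 0.13 and Drip at -0.02, while 2 of the 6 fell and 1 rose once replicates 1 and 3 of R-R were left out. Of 5 midgut genes 0 fell and 1 rose, with mean levels of 5.82 to 6.56 against 5.79 to 6.82. Of 5 fat body genes 1 fell and 1 rose, with 3.37 to 4.19 against 3.72 to 4.42, and the rich-raised range was 3.67 to 4.19 without replicates 1 and 3 of R-R. All 5 cuticle genes rose, with mean levels of 2.43 to 5.32 against 3.80 to 5.77. Without replicates 1 and 3 of R-R 2 of the 5 rose, and the rich-raised range was 3.89 to 5.32. Of 3 muscle genes 0 fell and 1 rose (TpnC4), with mean levels of 5.11 to 6.73 against 6.06 to 6.92. Their rich-raised range was 5.81 to 6.73 without those R-R arrays. The 4 accessory gland genes and 5 testis genes gave 0 calls. The part of these tissues in the P450 differences was not tested.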

How the data were processed

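RNA of 30 samples was hybridised to Affymetrix Drosophila Gene 1.0 arrays. The authors deposited GCRMA values, per the submitters' processing notes, with 1 value for each probe set on an array. These deposited values, from -0.56 to 10.78, were taken as log2. Their base is unstated, and if it were natural every difference would be 1.44 times larger, with the same p-values. Array medians ran from 0.82 to 0.94, and the mean correlation of an array with its group, over probe sets, from 0.951 to 0.988. Normalization between arrays brings medians together, and 3 arrays per group limit the precision.

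Groups were taken from the group label. With limma 3.58.1 (R 4.3.3), lmFit and eBayes at default settings modelled the 10 group means over the 30 arrays, without a filter and with a spread shared by the groups. It gave 14 contrasts and 3 F tests, adjusted by Benjamini-Hochberg over 15309 probe sets. The code was first tested on simulated data in which 200 probe sets differed. Probe sets were named from the platform annotation, and those with several symbols were not named. RefSeq's table was used for names and gene order only, since the array's build is not given in the sources used here.

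Named genes were every member called in a comparison and members with a known role, listed whatever their values, and beside them the members just outside the threshold or with the smallest p, which were chosen after their values were seen. Members and lists were chosen with earlier results of these data known. Alternatives were quantile normalization, centring on array medians, a mean of at least 1, a replicate block, fits of only the 2 groups compared, leaving out each array, the 2 arrays with ovary transcripts, or replicates 1 and 3 of R-R, and counting Cyp12d1-d as a member. Counting the 6 symbols with a second letter as members was added after seeing the data.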

Additional observations from a re-analysis of the deposited data

How the results depend on the processing

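For own diet on average, the calls of Cyp6d2, Cyp6a23, Cyp9b2, Cyp309a1, Cyp28a5 and Cyp6g1 were kept in all 36 alternatives, with differences of -1.87 to -1.70 for Cyp6d2 and -1.16 to -0.996 for Cyp6a23. The call of Cyp4e3 was lost in 21 of 35. The number of members called ran from 6 to 10 when each array was left out. No difference of a called member changed sign. Counts for single pairs were less stable. In F0 the count was 1 throughout when an array was left out. It was 1 to 4 in F1 of rich-raised parents, 0 in F1 of poor-raised parents, 0 to 2 in F2 of rich-raised grandparents and 0 to 1 in F2 of poor-raised grandparents. For grandparental diet in rich-raised F2 it was 0 to 1, for any difference among the 10 groups 4 to 8, and 0 in each of the other comparisons of ancestral diet, interactions and generations. Shares of all probe sets are not given for these counts with 1 array left out. In F1 of rich-raised parents, the filter on a mean of at least 1 gave 4 calls (1.52% of the 6834 probe sets kept). Leaving out replicates 1 and 3 of R-R gave 1 (0.098% of all). The fit of only the 2 groups gave 0 (0.131% of all), where the main fit called 0.601% of all. In F1 of poor-raised parents, quantile normalization, leaving out the arrays with ovary transcripts, and leaving out replicates 1 and 3 of R-R gave 2 each. Each of these called 0.0719% of all. The fit of only the 2 groups also gave 2 and called 0.0523% of all, as did the main fit. In F2 of rich-raised grandparents the filter gave 1 (0.161% of those kept), since it removed Cyp4e3, whose mean was 0.82, before testing. The fit of only the 2 groups gave 0 (0.0131% of all), where the main fit called 0.0588% of all. In F2 of poor-raised grandparents, leaving out the arrays with ovary transcripts and the fit of only the 2 groups gave 0 each. They called 0.0392% and 0.0131% of all, where the main fit called 0.0719%. For any difference among the 10 groups, leaving out the arrays with ovary transcripts gave 5 (0.699% of all, against 0.882% in the main fit). Fits of only 2 groups have fewer samples to estimate the spread from. The cause of the other shifts was not tested.

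Samples of different groups share only a replicate number. Each array's deviations from its group mean were correlated, over probe sets, with those of the arrays in the other group of its own-diet pair. These correlations ran from -0.10 to 0.11 for same-numbered arrays, and 11 of 30 arrays correlated best with their own number. With the number as a block, 8 members were called for own diet on average (1.96% of all probe sets), adding Cyp4e2. In F0 2 were called (0.222% of all), adding Cyp12a4. Both added genes were higher in poor-raised males. In F1 of poor-raised parents the block called Cyp6a23 in place of Cyp6d2 (-1.47, adjusted p = 0.0539).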

Other observations

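Cyp4ac1 has a second letter in its symbol, which put it outside the rule for members, and its values are given because it was called in 1 pair. Its level ran from 1.61 to 2.84 with a median of 2.37 on rich-raised arrays and from 0.96 to 2.65 with a median of 2.14 on poor-raised arrays, so that the ranges overlapped widely.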
